A study of Homo sapiens with 16 samples.

Results

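The stretch from 100 to 120 kb downstream of the transcription start site (TSS) was examined in averaged profiles of nascent RNA over long protein-coding genes. It was chosen by distance alone and comprised 20001 of the 122001 positions in each of the 16 profiles, which span 2 kb upstream to 120 kb downstream. For local structure it was divided into 80 bins of 250 bp, the length to which the authors extended each read, so that neighbouring bins share reads.

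DRB/GRO-seq follows RNA polymerase II (RNAPII) along genes. DRB inhibits P-TEFb, the kinase that releases polymerases from their arrest near the promoter, while polymerases already in elongation run on to the end of the gene. Once the drug is washed out, polymerases set off together as a wave, and run-on labelling of nascent RNA in isolated nuclei shows how far it has moved. Depth ahead of the wave is the background against which the wave is seen. RECQL5 is a DNA helicase that binds RNAPII and restrains elongation.

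The cells were HEK293T-Rex, a human embryonic kidney line carrying the tetracycline repressor. All of them carried an shRNA that depletes endogenous RECQL5 and an shRNA-resistant RECQL5 gene induced by doxycycline. WT cells were kept in doxycycline and expressed this copy, whereas KD cells were grown for 4 days without it, so the control also lacks the endogenous protein and doxycycline differs between the genotypes. Clones 15 and 18, each grown from a single colony, were sampled once per genotype at 0, 10, 25 and 40 min after DRB removal, giving n = 2 clones for each genotype and time and 4 profiles for each time. For DRB the sample labels state 100 mM, and they tie the times to doxycycline. The authors' methods state 100 μM and minutes after release, which were used here. The values are mean read depth per base, with every library scaled by the authors to the same number of reads.

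KD of clone 15 at 0 and 10 min stood apart from the other libraries of those times. Its depth over the first 1 kb was 3.49 at 0 min and 4.48 at 10 min, against 17.7 to 31.3 and 20.3 to 29.0 in the other profiles. Differences in depth, counts of bins and window changes that include these libraries are therefore also given without them, a choice made after seeing the data. Counting error was small, because the window held between 1064280 and 2350910 read placements per profile, which sets an SD of 0.0652% to 0.0969% on its mean depth. This covers counting error only, since copies of a molecule are not independent reads and a read near several genes is counted for each.

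Most long genes ended before the window. GENCODE 44, mapped to GRCh37 (equivalent to the authors' hg19, with newer gene models), lists 8888 protein-coding genes whose longest transcript reaches 30 kb. The authors averaged a somewhat smaller set of genes, so the shares given here describe the annotation and not exactly the genes in the profiles. Of the 8888 genes, 62.6% ended before 100 kb and another 7.07% ended inside the window. Transcripts of 37.4% of the genes were still running at 100 kb, and those of 30.3% at 120 kb. Averaged over 100 to 120 kb, 33.6% of positions lay in the gene's own transcript, 17.5% past its end and in another protein-coding transcript on the same strand, and 17.9% in one on the opposite strand only. The remaining 30.9% lay past the end with no protein-coding transcript on either strand. With both strands counted, the window thus held slightly more sequence of other genes than of the genes it was aligned to. On the same strand alone it held less, 17.5% against 33.6%.

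Parts of other genes close to their own starts were common at this distance. On the same strand, 12.0% of positions lay within the first 30 kb of another protein-coding transcript, and 20.3% did when either strand was counted. Over 60 to 100 kb these shares were 10.99% and 18.1%. The first 1 kb of another transcript on either strand covered 0.995% of positions in the far window. Exons of protein-coding genes on either strand covered 7.51% of positions, against 8.35% over 60 to 100 kb. The labels call the libraries strand specific, but the sources used here do not say which strand was counted in the profiles.

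**Figure D1:**
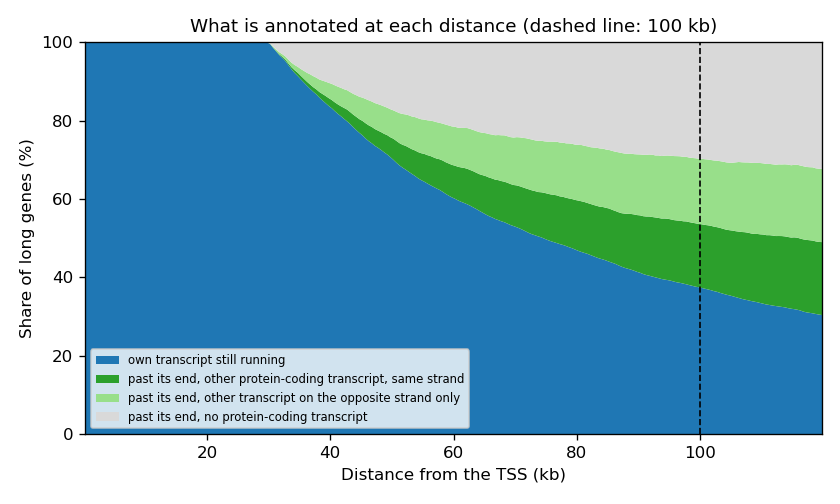
Share of 8888 long genes (%, y axis) against distance from the TSS in kb (x axis), divided by whether the gene's own longest transcript was still running and, past its end, by what other protein-coding transcripts were annotated. At the dashed line at 100 kb, 37.4% of genes were still running.

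Before release, at 0 min, the mean depth from 100 to 120 kb was 1.58 in WT of clone 15, 1.65 in WT of clone 18, 1.67 in KD of clone 15 and 1.71 in KD of clone 18. The mean was 1.65 ± 0.0536 (SD, n = 4). At 10 min the depth was 1.56 and 1.55 in WT of clones 15 and 18, and 1.71 and 1.56 in KD. Apart from KD of clone 15, the profiles at this time lay between 1.55 and 1.56, below every profile at 0 min.

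At 25 min all 4 profiles were higher than any at 0 or 10 min. The depth was 1.904 and 1.975 in WT of clones 15 and 18, and 1.885 and 1.899 in KD, with a mean of 1.92 ± 0.0405 (SD, n = 4). At 40 min it was 1.802 and 1.876 in WT, and 1.824 and 1.932 in KD, with a mean of 1.86 ± 0.0577 (SD, n = 4). These values again lay above every profile at 0 and 10 min and overlapped those at 25 min.

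**Figure D2:**
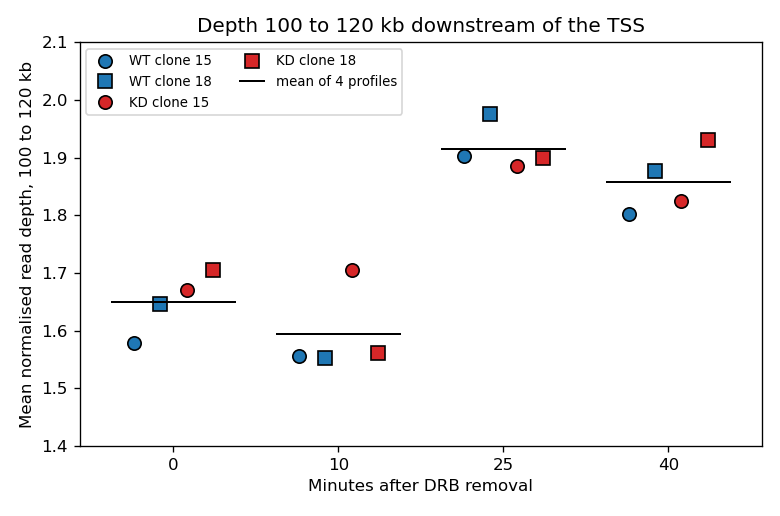
Mean normalised read depth from 100 to 120 kb (y axis, which starts at 1.4) in each of the 16 profiles by minutes after DRB removal (x axis); colours mark genotype, symbols mark clone and the lines are means of 4 profiles. The profiles at 25 and 40 min sit between 1.802 and 1.975, all above the highest value at 0 and 10 min, 1.71.

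The depth at 25 min was 1.16 times that at 0 min, a log2 difference of 0.22, and was higher in all 4 series of clone and genotype, by between 11.3% in KD of clone 18 and 20.6% in WT of clone 15. The unadjusted p was 0.0286 (exact permutation test, two-sided), the smallest that 4 profiles against 4 allow, but adjusted over the 4 comparisons of times it was 0.0571 (Benjamini-Hochberg) and missed the threshold of 0.05. At 40 min the depth was 1.13 times that at 0 min, a log2 difference of 0.17, with the same p values (exact permutation test, p = 0.0286, adjusted 0.0571). Without KD of clone 15 at 0 min the log2 differences were 0.22 and 0.18. With the samples paired by series, the exact sign-flip permutation test gave p = 0.125 for each time, and 4 pairs allow no smaller value.

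This difference depended on the scaling. When each profile was divided by its own mean over −2 to 120 kb, the depth of the far window was lower than at 0 min, by a log2 difference of −0.19 at 25 min and −0.46 at 40 min, or −0.14 and −0.41 without KD of clone 15 at 0 min. Between 0 and 25 min the depth over 5 to 30 kb, inside the wave, went from 1.31 to 4.06 on the deposited scale, so the mean of the whole profile moves with the wave itself. The differences above are thus differences at a fixed number of reads, not in the absolute amount of RNA.

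Between 0 and 10 min the depth of the window differed by a log2 value of −0.05 (exact permutation test, two-sided, p = 0.314, adjusted 0.314). It was lower at 10 min in 3 of 4 series and 2.15% higher in KD of clone 15. With clone 15 left out the log2 difference was −0.11, with clone 18 left out it was 0.0051, and without KD of clone 15 at both times it was −0.08. From 25 to 40 min the log2 difference was −0.04 (exact permutation test, two-sided, p = 0.2, adjusted 0.267). It was negative in both WT clones and in KD of clone 15, at −5.31%, −5.01% and −3.22%, and positive in KD of clone 18, at 1.70%.

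In all 80 bins the 4 profiles at 25 min lay above the 4 at 0 min, compared with 71.2% of the 480 bins from 0 to 120 kb, while 5.83% of the 480 and none of the 80 were lower. At 40 min all 80 bins again lay above those of 0 min, compared with 98.5% of the 480. Between 0 and 10 min none of the 80 bins separated the groups, where 3.12% of the 480 were higher and 0% lower. Without KD of clone 15 at these times, however, 55 of the 80 bins were lower at 10 min in 3 profiles against 3, as were 67.9% of the 480. The counts of 80 bins for 25 and 40 min against 0 min were the same without it. Between 25 and 40 min none was higher at 40 min and 4 were lower, where 45.8% and 14.8% of the 480 were. The bins share reads and libraries, so these counts describe the extent of a difference and not its reliability.

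The far window changed differently from its neighbour, 60 to 100 kb. At 0 min the ratio of the far depth to that over 60 to 100 kb was 0.974, 0.976, 0.949 and 0.973 in WT of clones 15 and 18 and KD of clones 15 and 18. At 10 min it was 1.004, 0.992, 0.956 and 0.978 in the same order, and at 25 min it was 1.04, 1.04, 1.02 and 1.02. All 4 profiles at 25 min lay above all of those at 0 min. The log2 ratio was higher at 25 min by 0.09 (exact permutation test, two-sided, p = 0.0286, adjusted over 3 ratio tests 0.0429), in a test added after seeing the data. Profiles that separate fully fix this p at its smallest value, and the adjustment does not cover the choice of the test. The p-values are therefore no support beyond the separation itself. A ratio within a profile does not depend on the scaling of its library. Without KD of clone 15 at 0 min the difference was 0.08. Paired by clone and genotype, the ratio was higher in 4 of 4 series, but the exact sign-flip permutation test gave p = 0.125, its smallest value, so that this test cannot pass the threshold.

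The difference between 0 and 25 min was larger farther ahead of the wave. In 10 kb windows its mean log2 value over the 4 series was −0.17 ± 0.0576 at 40 to 50 kb, −0.05 ± 0.0366 at 50 to 60 kb, 0.08 ± 0.0564 at 60 to 70 kb and 0.12 ± 0.0520 at 70 to 80 kb (SD, n = 4). At 80 to 90 kb it was 0.14 ± 0.0529 and at 90 to 100 kb 0.17 ± 0.0549. Inside the far window it was 0.20 ± 0.0611 at 100 to 110 kb and 0.23 ± 0.0578 at 110 to 120 kb, with all 4 series positive in each. Without KD of clone 15 these values were 0.21 ± 0.0639 and 0.25 ± 0.0652 (SD, n = 3). In 2 kb steps it was 0.18 at 100 to 102 kb, lowest at 102 to 104 kb with 0.17, and highest at 118 to 120 kb with 0.26, with small reversals between neighbouring steps, such as 0.234 at 112 to 114 kb and 0.226 at 114 to 116 kb. The difference was thus larger at the end of the profile than at 100 kb.

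By 40 min the wave had come close to the window. From 60 to 100 kb the depth was 1.86 ± 0.0283 at 25 min and 2.42 ± 0.193 at 40 min (SD, n = 4), without overlap, whereas the mean far depth was 1.92 and then 1.86. The ratio of far to 60 to 100 kb fell to 0.841 and 0.742 in WT of clones 15 and 18 and to 0.747 and 0.752 in KD. The log2 ratio differed between 25 and 40 min by −0.42 (exact permutation test, two-sided, p = 0.0286, adjusted over 3 ratio tests 0.0429). These 3 tests include the comparison of 0 with 25 min that was added after seeing the data. Without it in the family, the adjusted value would miss the threshold of 0.05. The paired form of this test also gave p = 0.125 (exact sign-flip permutation test), with the ratio lower in 4 of 4 series. At 90 to 100 kb the log2 change from 25 to 40 min was still 0.06 ± 0.0788, and it was positive in 3 of 4 series. At 100 to 102 kb it was −0.0040 ± 0.0520, and at 110 to 112 kb it was −0.07 ± 0.0523, negative in all 4 series.

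The slope inside the window was compared next. The ratio of 100 to 110 kb to 110 to 120 kb was 1.02, 1.02, 1.04 and 1.02 at 0 min in WT of clones 15 and 18 and KD of clones 15 and 18. At 25 min it was 0.996, 0.993, 1.01 and 0.997, below every profile at 0 min, a difference that was not tested. At 40 min it was 1.003, 1.002, 1.02 and 1.01. From 25 to 40 min the log2 ratio differed by 0.02, with a positive sign in 4 of 4 series, which did not pass the threshold (exact permutation test, two-sided, p = 0.0857, adjusted over 3 ratio tests 0.0857). Both KD values were above both WT values at 10, 25 and 40 min, but not at 0 min, and this difference was not tested.

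**Figure D3:**
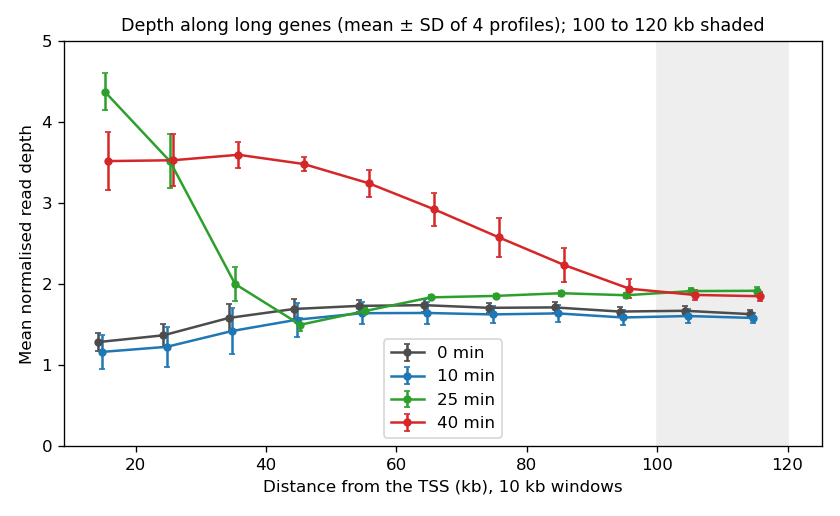
Mean normalised read depth (y axis) in 10 kb windows by distance from the TSS in kb (x axis), as the mean and SD of 4 profiles at each time, with 100 to 120 kb shaded. In the shaded part the 25 and 40 min means lie between 1.85 and 1.92 and the 0 and 10 min means between 1.58 and 1.67.

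Before release the far window was deeper than the gene body behind it. At 0 min the depth over 5 to 30 kb was 1.19 and 1.25 in WT of clones 15 and 18, and 1.47 and 1.32 in KD. The far depth was therefore 1.32, 1.31, 1.14 and 1.29 times the depth over 5 to 30 kb. The mean log2 ratio was 0.34 ± 0.102 (SD, n = 4) and was positive in 4 of 4 profiles (two-sided exact sign-flip permutation test, p = 0.125, and 4 profiles allow none smaller). KD of clone 15, with its low depth at the promoter, had the lowest ratio, and without it the mean was 0.39 ± 0.0187 (SD, n = 3). At 10 min the ratio was 1.497, 1.397, 1.15 and 1.30 in the same order. With the wave inside the gene body it was 0.440 to 0.491 at 25 min and 0.451 to 0.584 at 40 min.

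At 0 min the depth did not keep climbing to the end of the profile. Beyond 10 kb it was highest at 60 to 70 kb, at 1.74 ± 0.0791, and lower at 110 to 120 kb, at 1.63 ± 0.0521 (SD, n = 4). Over the same distances the share of genes still running decreased throughout.

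Whether the background ahead of the wave differed with RECQL5 depletion was compared next, and the differences were small. At 0 min KD was higher than WT by 5.79% in clone 15 and by 3.64% in clone 18, and at 10 min by 9.61% and 0.620%. At 25 min KD was lower, with a difference of −0.981% in clone 15 and −3.84% in clone 18. At 40 min KD was higher again, by 1.205% and 2.95%. None of these differences can pass the threshold, since the smallest p for 2 profiles against 2 is 0.333. The exact permutation test gave p = 0.333 at 0, 10 and 25 min and p = 0.667 at 40 min (adjusted over the 4 times 0.444 and 0.667). KD profiles lay above WT profiles at 0 and 10 min and below them at 25 min, without overlap, while at 40 min the genotypes overlapped.

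Over the 8 pairs of clone and time, KD exceeded WT by a mean log2 value of 0.03 with an SD of 0.0582, in 6 of 8 pairs (two-sided exact sign-flip permutation test, p = 0.164, where 8 pairs can reach 0.00781). The pairs come from only 2 clones. Without the pairs of clone 15 at 0 and 10 min, the mean was 0.0082 (exact sign-flip permutation test, p = 0.656). Divided by the mean of the whole profile, KD exceeded WT by 0.12 (exact sign-flip permutation test, p = 0.0234). The largest values, 0.26 and 0.43, came from the pairs of clone 15 at 0 and 10 min. Without these pairs, which leaves fewer to test, the mean was 0.05 and did not pass the threshold (exact sign-flip permutation test, p = 0.0938). The whole profile includes the promoter, where the difference of KD from WT over the first 1 kb at 0 min was −88.8% in clone 15 and −31.7% in clone 18. The part of this promoter depth in the scaled difference was not tested.

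In single bins the genotypes separated most at 0 min. KD lay above WT without overlap in 60 of 80 bins, against 91.5% of the 480 bins from 0 to 120 kb. At 10 min it did so in 37 bins (81.2% of the 480), and at 25 min it lay below WT in 40 bins (30.8% of the 480). With KD of clone 15 left out, the single KD profile lay above both WT profiles in 80 bins at 0 min (98.5% of the 480). At 10 min it lay above them in 37 bins (81.2% of the 480) and below them in 18 (10% of the 480). At 40 min KD lay above WT in 5 bins, where 2.5% of the 480 did.

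The difference between the clones was smaller than its spread. Clone 18 exceeded clone 15 by a mean log2 value of 0.02 with an SD of 0.0661 over 8 pairs of genotype and time (exact sign-flip permutation test, two-sided, p = 0.414). It was higher in 6 of 8 pairs, and the exceptions were both at 10 min, with −0.283% in WT and −8.46% in KD. Without the KD pairs at 0 and 10 min the mean was 0.04 with an SD of 0.0329 (exact sign-flip permutation test, p = 0.0625). Scaled by the mean of the whole profile and without these pairs it was 0.04 with an SD of 0.0246 (exact sign-flip permutation test, unadjusted p = 0.0312). With all 8 pairs the scaled mean was −0.0077 (exact sign-flip permutation test, p = 0.852). All pairs compare clone 18 with clone 15, so these p-values do not measure a spread between clones.

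The window was not flat. After each profile was divided by its window mean and a straight line was removed, the 80 bins varied with an SD of 1.51% to 2.86% in the 16 profiles. Counting error for a bin, with reads taken as independent, was 0.476% to 0.708%. The bumps were 2.93 to 4.67 times as large as such counting alone would give. Reads are not fully independent, as stated above, so these ratios may be too high. The bumps were largest at 0 and 10 min, with mean SDs of 2.36% and 2.40% (n = 4 each), and smallest at 40 min, with 1.73%.

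The bumps were shared between samples. Over the 120 pairs of profiles, Pearson's r across the 80 bins had a median of 0.672 and ranged from 0.349 to 0.899. These correlations are descriptive, because all profiles average the same genes and neighbouring bins share reads. In 8 bins every profile lay above its line and in 10 bins every profile lay below it. In windows of equal length the median r was 0.498 at 80 to 100 kb, 0.555 at 60 to 80 kb and 0.533 at 40 to 60 kb. Within a time the medians were closer, at 0.814 in the far window and 0.710, 0.817 and 0.773 in these windows.

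The likeness followed time more than genotype or clone. Pairs from the same time had a median r of 0.814 (24 pairs) and pairs from different times one of 0.629 (96 pairs). Within a time, the median was 0.840 for the same genotype in different clones, 0.832 for different genotypes of the same clone and 0.768 where both differed (8 pairs each). Across times, profiles of the same clone and genotype had a median of 0.654 (24 pairs), lower than any of these.

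The times fell in order. Between 0 and 10 min the median r was 0.792, against 0.792 within 0 min and 0.812 within 10 min. Among pairs of the same genotype in different clones it was 0.788 between these times (4 pairs) and 0.840 within them (4 pairs). Between 0 and 25 min the median was 0.689, and within 25 min it was 0.888, the highest of any time. Between 40 min and the earlier times it was 0.515 (48 pairs), although the 40 min profiles had a median of 0.765 among themselves. KD of clone 15 at 0 min had a median r of 0.623 with the 4 profiles at 40 min, against 0.478 for the 0 and 10 min profiles other than KD of clone 15.

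**Figure D4:**
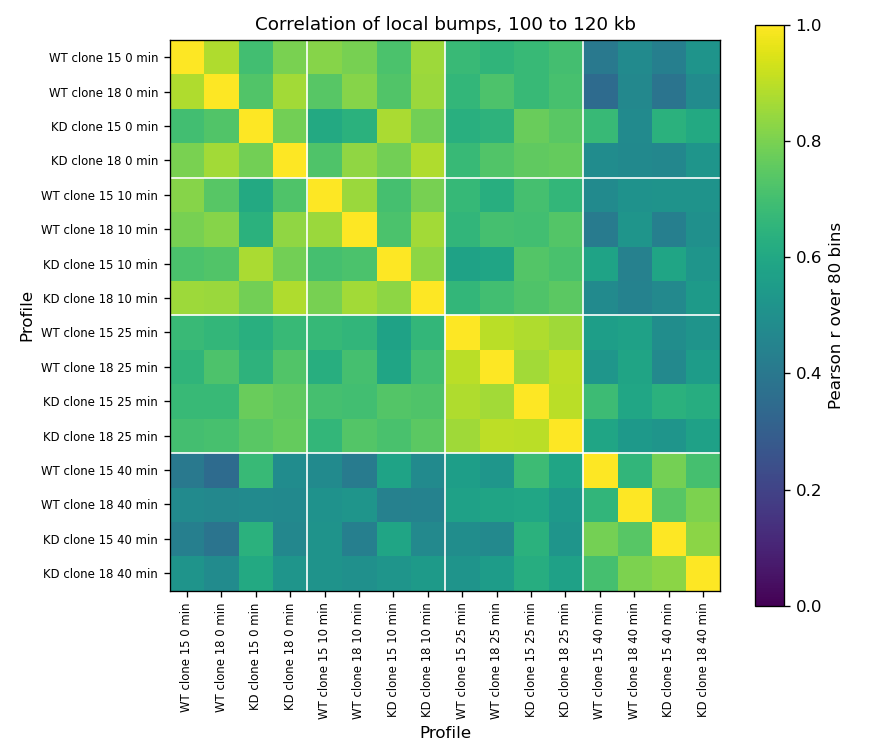
Pearson's r over 80 bins of 250 bp from 100 to 120 kb (colour scale from 0 to 1) for each pair of the 16 profiles, which are ordered by time on both axes; white lines divide the times. The block within 25 min is the brightest, with a median of 0.888, and the pairs of 40 min with earlier times are the darkest, with a median of 0.515.

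The highest bin lay at 109.5 to 109.75 kb. Its mean over 4 profiles was 5.60% above the line at 0 min and 6.15% at 10 min. It was 5.19% at 25 min and 2.92% at 40 min. The bin was above the line in 16 of 16 profiles, by 1.99% to 6.85%. Like the other named bins, it was chosen by its mean over these same profiles, so such counts partly follow from that choice. The adjoining bin at 109.25 to 109.5 kb was also above in all 16. A further bump lay at 110.75 to 111 kb. It ranged from 4.05% to 5.63% at 0 min and from 0.216% to 2.31% at 40 min. The ranges of these times also lay apart in many other bins, including the highest and the lowest. The next bin, at 111 to 111.25 kb, averaged 3.27% at 0 min and 0.423% at 40 min. Both bumps near the middle of the window were thus lower at 40 min than at 0 min.

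The remaining bin of the 5 highest, at 117.25 to 117.5 kb and ranked 3 from the top by its mean, behaved differently. At 10 min it was above the line by 7.65% and 5.99% in WT of clones 15 and 18 and by 1.33% and 2.06% in KD. At the other times all profiles lay between 0.414% and 3.28%. The WT profiles at 10 min therefore stood above all others in this bin, in a comparison noticed among 80 bins and not tested.

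The lowest bin lay at 101.5 to 101.75 kb, where the depth was below the line in 16 of 16 profiles, by a mean of −4.72% with values from −7.35% to −2.12%. A broader trough covered 115.75 to 116.25 kb. Its bins averaged −4.32% and −4.21% and were below the line in all 16 profiles. In the first of them the mean was −4.19% at 0 min and −4.32% at 40 min. In the next it was −4.80% at 0 min, with values from −6.02% to −3.95%, and −3.16% at 40 min, with values from −3.46% to −2.43%. A dip at 106.75 to 107 kb averaged −5.23% and −4.51% at 0 and 10 min, and −1.81% and −3.90% at 25 and 40 min. At 118.5 to 118.75 kb the depth was below the line in 14 of 16 profiles, with a mean of −4.02% at 0 min and −0.454% at 40 min.

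**Figure D5:**
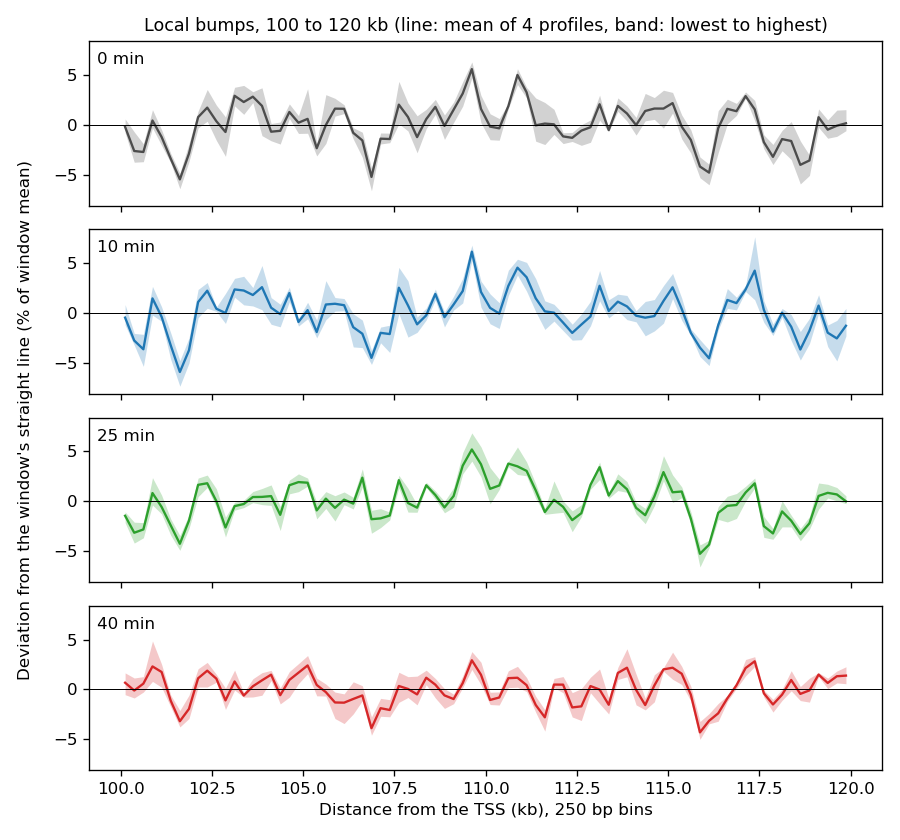
Deviation of 80 bins of 250 bp from a straight line through the window (% of the window mean, y axis) against distance from the TSS in kb (x axis), one panel per time; lines are means of 4 profiles and bands run from the lowest to the highest profile. The peaks at 109.5 to 109.75 kb and 110.75 to 111 kb and the troughs at 101.5 to 101.75 kb and 115.75 to 116.25 kb recur in every panel. The first peak averages 5.60% at 0 min and 2.92% at 40 min, and the second 5.01% and 1.17%.

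Annotated features did not track the bumps closely. Across the 80 bins, with the straight line removed from both, the mean bump profile had a Pearson's r of −0.0787 with the share of positions in exons on either strand and −0.260 with exons on the same strand. With the first 1 kb of other transcripts on either strand r was 0.0017, and with the share of genes still running it was −0.306. The last of these changed over time, from −0.328 at 0 min and −0.445 at 25 min to 0.114 at 40 min. These are descriptions over bins that share genes, and the annotation weights every gene equally, whether or not it was transcribed.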

How the data were processed

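Nascent RNA was profiled in 16 libraries, 1 for each clone, genotype and time. The authors aligned reads to hg19 with BWA 0.5.9 (CASAVA 1.8.2 is also named in the submitters' processing notes), discarded those on rRNA genes or in blacklisted regions, lengthened the rest to 250 bp and brought all libraries to the same number of reads. The deposited signal is the resulting coverage at each base, averaged by the authors with a trimmed mean over genes with transcripts of at least 30 kb. It keeps no single gene, and no gene is named.

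Each profile's values were whole multiples of a step (within 6e-10 of a whole number), and the steps place the libraries at 0.747 to 1.398 times the median number of reads. Library sizes themselves were not derived. Window means were compared on the log2 scale without a pseudocount by exact permutation tests, two-sided, with Benjamini-Hochberg adjustment within each family of comparisons. The calculations were tested on simulated data. Bumps were defined in 250 bp bins, and the 5 highest and 5 lowest bins are named. Same-numbered clones are the same cell line and therefore pair the samples. Their deviations from the group means over 80 bins had a correlation between WT and KD of 0.250, −0.0439, 0.304 and 0.187 at 0, 10, 25 and 40 min. The clones are the replicates, and p-values describe the spread between these samples only. The unpaired tests between times, of depth and of ratios, took WT and KD of the same clones as independent profiles. Their p-values therefore do not measure the spread between independent clones. The labels name no sequencing batch. Python 3.11.15, numpy 2.4.6, pandas 2.3.3 and matplotlib 3.10.9 were used. The window, bins and comparisons were chosen with earlier results of these data known.

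Alternatives were the median over positions, the window 110 to 120 kb, division by the mean of the whole profile, other gene-body windows and bin widths, a replicate block, and leaving out each clone.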

Additional observations from a re-analysis of the deposited data

Results flagged for a closer look

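In 24 groups of 4 profiles checked for a value far from the rest, 3 were found, where chance gives about 1.2. At 10 min the far depth of KD of clone 15 was 1.71 (1.706 before rounding), above the 1.55 to 1.56 of the other profiles. At 0 min its ratio of far depth to 60 to 100 kb, 0.949, lay below the other 3. At 40 min the same ratio was 0.841 in WT of clone 15, above the 0.742 to 0.752 of the other profiles, and its depth over 60 to 100 kb was 2.14, against 2.44 to 2.57.

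The difference in far depth between KD and WT had the opposite sign at 25 min from the other times, in both clones. The mean log2 difference was lower at 25 min than at 0 min by −0.10 and than at 10 min by −0.11, and it was higher at 40 min than at 25 min by 0.065. These differences between times were not tested. Divided by the mean of the whole profile, the difference of KD from WT at 25 min was 0.04 and thus positive.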

How the results depend on the processing

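Results are judged here by unadjusted p against 0.05. Of 68 alternatives other than leaving out a clone, 54 were counted as keeping direction and side of the threshold. Many of these could not change side, so the count is not a measure of robustness. KD against WT at a single time compares 2 profiles with 2, which allows no p below 0.333. Far depth against the gene body at 0 min allows no p below 0.125. The median r of the bumps has no p and thus no side. Dividing by the mean of the whole profile turned the log2 differences of 25 and 40 min from 0 min to −0.19 and −0.46, that of KD from WT to 0.0398 at 25 min and −0.0020 at 40 min, and that of clone 18 from clone 15 to −0.0077. The same scaling brought 40 against 25 min (−0.27) and KD against WT over 8 pairs (0.12) past the threshold. Scaled in this way and without KD of clone 15 at 0 and 10 min, 25 and 40 against 0 min were −0.14 and −0.41, KD against WT was 0.05 and no longer passed, and clone 18 against clone 15 was 0.0445 and passed (p = 0.0312 by exact sign-flip permutation, where 6 pairs allow none smaller). With a replicate block by series of clone and genotype, 25 and 40 against 0 min (0.22 and 0.17) and the ratio of far to 60 to 100 kb (−0.42 for 40 against 25 min and 0.0893 for 25 against 0 min) have p = 0.125 (exact permutation test), the smallest for 4 pairs. The block by clone or series changed no other call. In the comparisons between times, leaving out a clone leaves 2 against 2, whose smallest p is 0.333. The ranges were then −0.11 to 0.0051 for 10 against 0 min, 0.21 to 0.22 for 25 against 0 min, 0.16 to 0.18 for 40 against 0 min, −0.46 to −0.37 for the ratio from 25 to 40 min and 0.0816 to 0.0971 for the ratio from 0 to 25 min. The clones cannot be compared with a clone left out. The median r of the bumps was 0.701 with 500 bp bins, 0.687 with 1000 bp bins and 0.601 with no line removed. Beyond 120 kb nothing was measured, so a floor past the window cannot be read.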

Other observations

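The window from 100 to 120 kb held 15.5% ± 0.659 (SD, n = 4) of the summed depth from 0 to 120 kb at 0 min and 14.7% ± 1.24 at 10 min. At 25 min it held 13.1% ± 0.189 and at 40 min 10.7% ± 0.260. Without KD of clone 15 the shares at 0 and 10 min were 15.3% ± 0.506 and 14.2% ± 0.876 (SD, n = 3). At 0 min the highest share was 16.3%, in KD of clone 15, and the lowest 14.8%, in WT of clone 15.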
